A study of Mus musculus with 26 samples.

Results

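The 40 genes described here carry a cell through DNA replication and mitosis, and they were taken by symbol from a list. That list was chosen with earlier results of these data known. Of the 40, 39 had a probe set with a single gene symbol on the array, and 38 lay above the median of their array in at least 3 arrays, the filter used for every test. The whole array held 18193 named genes, of which 12741 passed this filter. No probe set carries the symbol Ccnb1 in the annotation used here. Tyms (thymidylate synthase) was above the array median in 1 inguinal array and in none of the interscapular ones, and it was not tested. The 38 tested genes were 19 of mitosis, 11 of replication and 8 regulators of cell cycle entry and progression.

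The cells were 26 immortalized clonal adipose lines of the mouse, 23 from the inguinal depot beneath the skin and 3 from the interscapular depot between the shoulder blades. All came from the 129SVE strain supplied by Taconic, all had been fully differentiated into adipocytes in culture, and all had been exposed to forskolin, an activator of adenylyl cyclase, for 4 h. The stated dose differs by source, 10 micromolar for the series and 10 millimolar for each sample, and this could not be resolved. Each line is 1 clone measured on 1 Affymetrix mouse array, so a difference between clones and a difference between cultures of 1 clone cannot be told apart. No clone was measured without forskolin, and the inguinal clones carry no label of beige or white. Every p-value therefore refers to the spread between clones.

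In a cycling cell, cyclin D and its kinases release E2F factors from the retinoblastoma proteins. E2F factors then switch on genes of DNA replication, such as the subunits of the MCM helicase and of ribonucleotide reductase. Later in the cycle, MuvB complexes with B-Myb and FoxM1 act through the CHR element and nearby CCAAT boxes of many mitosis genes. Preadipocytes leave the cell cycle when they become adipocytes, and transcripts of both groups are then usually low.

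The promoters of 5 members are shown because replication and mitosis genes are known for different promoter elements. The windows run from 250 bases before to 50 bases after the annotated start and come from RefSeq on GRCm38.p6, and a window was used when its start lay within 100 bases of the 5′ end of the gene. Capitals mark matches, on either strand, to 3 motifs. The E2F motif was spelled TTGGCGC or, in its other forms, with the letters TTCCCGC, with the letters TTCGCGC or with the letters TTGCCGC. The CHR motif was spelled TTTGAA or, in its other form, TTCGAA, and the third motif was CCAAT. Rrm2 (chr12:24708004-24708303, plus strand) and Mcm5 (chr8:75109259-75109558, plus strand) are replication members that were lower in interscapular clones.
Rrm2: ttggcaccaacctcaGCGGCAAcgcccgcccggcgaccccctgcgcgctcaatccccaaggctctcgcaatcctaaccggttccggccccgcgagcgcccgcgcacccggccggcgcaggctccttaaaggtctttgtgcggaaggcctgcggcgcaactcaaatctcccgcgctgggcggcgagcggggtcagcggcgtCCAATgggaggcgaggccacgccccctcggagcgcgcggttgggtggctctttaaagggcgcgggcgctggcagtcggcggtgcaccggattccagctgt
Mcm5: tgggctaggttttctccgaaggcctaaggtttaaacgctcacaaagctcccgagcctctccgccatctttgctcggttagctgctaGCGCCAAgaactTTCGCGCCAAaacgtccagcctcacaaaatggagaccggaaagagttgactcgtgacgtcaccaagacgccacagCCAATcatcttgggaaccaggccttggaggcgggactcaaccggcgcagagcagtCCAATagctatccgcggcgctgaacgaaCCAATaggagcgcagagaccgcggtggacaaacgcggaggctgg
Cdkn2c (chr4:109666707-109667006, minus strand) is the regulator that was higher there.
Cdkn2c: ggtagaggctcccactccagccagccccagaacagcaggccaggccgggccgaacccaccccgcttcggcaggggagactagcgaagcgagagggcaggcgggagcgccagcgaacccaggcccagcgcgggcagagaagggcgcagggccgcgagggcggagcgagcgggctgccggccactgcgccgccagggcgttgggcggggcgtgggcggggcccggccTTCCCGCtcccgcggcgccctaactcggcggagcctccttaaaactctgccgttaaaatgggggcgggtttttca
Top2a (chr11:99024140-99024439, minus strand) and Ccnb2 (chr9:70421505-70421804, minus strand) stand for the mitosis members.
Top2a: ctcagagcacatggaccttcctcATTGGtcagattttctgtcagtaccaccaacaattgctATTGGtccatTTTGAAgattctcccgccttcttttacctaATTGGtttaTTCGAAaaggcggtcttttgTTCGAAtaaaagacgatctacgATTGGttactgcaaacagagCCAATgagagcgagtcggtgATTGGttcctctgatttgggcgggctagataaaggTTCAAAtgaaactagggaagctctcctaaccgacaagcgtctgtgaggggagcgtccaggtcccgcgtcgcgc
Ccnb2: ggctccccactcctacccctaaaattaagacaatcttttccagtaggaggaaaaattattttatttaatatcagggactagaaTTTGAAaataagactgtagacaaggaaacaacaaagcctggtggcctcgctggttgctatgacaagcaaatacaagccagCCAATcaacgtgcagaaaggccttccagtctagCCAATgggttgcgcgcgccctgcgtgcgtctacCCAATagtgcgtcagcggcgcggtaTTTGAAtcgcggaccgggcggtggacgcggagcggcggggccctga

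Such a window was at hand for 27 of the 40 members. The windows listed for Cdc6, E2f1, Aurka and Mcm7 start farther inside the gene, those of Cdc6 and E2f1 by 442 and 466 bases, and were not used. The E2F letters stood in 6 of 9 replication members (66.7%), in 3 of 15 mitosis members and in 9.12% of 22803 genes with such a window. The CHR letters stood in 11 of 15 mitosis members (73.3%), in 1 of 9 replication members (11.1%) and in 20.3% of all genes. CCAAT was found in 13 of 15 mitosis members (86.7%), in 7 of 9 replication members (77.8%) and in 38.7% of all genes. Of the 3 regulators with a window, Cdkn2c held the E2F letters, and none held the CHR letters or CCAAT. In the member windows, 1 match of one motif overlapped a match of another. Mcm5 held 3 E2F matches, the farthest beginning 164 bases before the start, while Top2a held 4 CHR and 6 CCAAT matches and no E2F match.

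Levels are given as log2(intensity + 16) of the deposited values, taken from the brightest probe set of each gene. Array medians lay between 40.3 and 45.7 intensity units, that is between 5.82 and 5.95 on this scale, and no pair of arrays was a copy. Levels of different genes come from different probe sets and are not set against each other. BAT6, an interscapular clone, and F4, an inguinal clone, had log2 ratios of 3' to 5' Gapdh signal of 4.51 and 1.61, against at most 0.67 in the other 24 arrays. Adipoq (adiponectin), a mature adipocyte gene, was at 9.19 to 14.13 in inguinal and 12.66 to 13.92 in interscapular clones. Ucp1, the uncoupling protein of thermogenic fat, was above the array median in 12 of 26 arrays, and the interscapular values of 7.01, 6.37 and 6.19 lay within the inguinal range of 4.66 to 7.55. Of 8 macrophage and leukocyte genes, Csf1r, Adgre1, Cd68 and Cd14 were above the array median in 26 of 26 arrays, Lyz2 in 5, and Ptprc, Itgam and Cd3e in 0. Of 4 endothelial genes, Kdr was above it in 26, Tek in 2, and Pecam1 and Cdh5 in 0. In bulk RNA, fewer cycling cells and less of these transcripts per cell cannot be told apart.

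The mitosis members varied widely among the inguinal clones and did so together. Mki67, the usual proliferation marker, ranged from 5.56 in D16 over a median of 7.43 to 9.67 in I2, a span of 4.11 log2 units. The interscapular clones BAT1, BAT6 and BAT8 had Mki67 values of 6.34, 6.87 and 6.63, in the lower part of the inguinal range. Top2a, the topoisomerase that untangles sister DNA, ranged from 6.69 in D16 over 9.03 to 11.03 in I2. It stood at 7.18, 7.82 and 7.22 in the interscapular clones, and only 3 inguinal clones were below the highest of these. Bub1, a kinase of the spindle checkpoint, had the widest inguinal spread of the members, on the probe sets used, with an SD of 1.03, and ranged from 4.45 to 8.62. Cdc20, which activates the anaphase-promoting complex, had the narrowest spread of the mitosis members on these probe sets, with an SD of 0.42 and a range of 7.17 to 8.78.

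I2 was the highest inguinal clone for all 19 mitosis members. D16 ranked 20 to 23 of 23 for each of them and M4 ranked 16 to 23. The median SD among inguinal clones was 0.83 for mitosis members, 0.58 for replication members and 0.38 for regulators, against 0.32 for all tested genes, and 35 of 38 members were above that last value. Across the 23 inguinal clones, the 171 pairs of mitosis members had a median Pearson correlation of 0.90, from 0.64 to 0.97. These clones share the platform, each was measured as a bulk RNA mixture, and the correlations are descriptions. Among cyclins and their kinase, Ccna2 (cyclin A) ran from 5.48 to 9.49, Ccnb2 (a B-type cyclin) from 5.39 to 9.17, and Cdk1, their partner kinase, from 8.81 to 10.94. Of the mitotic kinases, Aurka ran from 5.20 to 8.39, Aurkb from 5.28 to 7.74 and Plk1 from 5.69 to 8.58. Birc5 (survivin, a subunit of the chromosomal passenger complex) ran from 5.81 to 9.79, and Ube2c, the ubiquitin-conjugating enzyme of the anaphase-promoting complex, from 6.28 to 10.10. Bub1b, a checkpoint protein, was the sole tested member whose inguinal mean, 5.59 ± 0.68 (SD, n = 23), lay below the lowest array median.

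Genes of the spindle and the kinetochore were also highest in I2. Kif11, the kinesin that pushes spindle poles apart, ran from 4.78 to 7.64 among inguinal clones, and Kif20a, a kinesin of cytokinesis, from 5.05 to 8.31. Nusap1, which bundles spindle microtubules, ran from 5.22 to 8.61. Tpx2, an activator of Aurora A, had a narrower range of 6.49 to 8.58. Cenpa, the histone variant of centromeres, ran from 6.06 to 9.61, and Cenpe, a kinetochore kinesin, from 4.86 to 7.87.

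**Figure D1:**
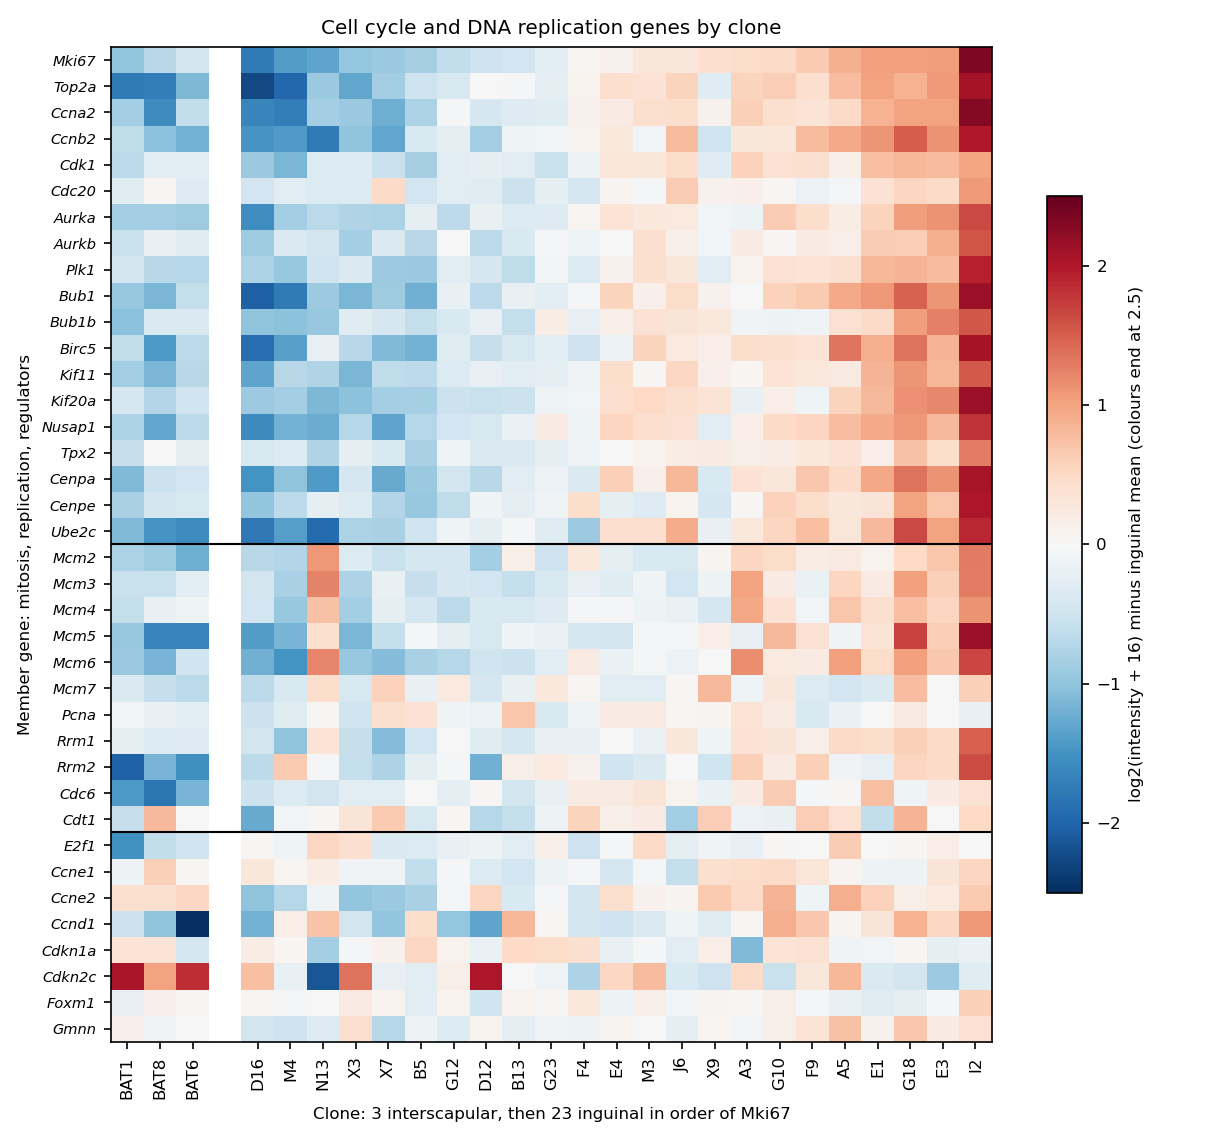
Each square is the log2(intensity + 16) of 1 of 38 members in 1 clone minus the gene's mean over the 23 inguinal clones, with colours ending at 2.5. Columns are the 3 interscapular clones and then the 23 inguinal clones in order of Mki67, and the upper block of 19 mitosis members runs from low in D16 to high in I2.

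The replication members split into a group that varied together and members that varied on their own. Mcm2, Mcm3, Mcm4, Mcm5 and Mcm6, subunits of the replicative helicase, each correlated at 0.87 to 0.91 with the mean of the other replication members across inguinal clones. Rrm1, the large subunit of ribonucleotide reductase, had a correlation of 0.84 and Rrm2, the small subunit, 0.61. Mcm7, the remaining helicase subunit listed, had 0.50, Cdc6 0.42, Cdt1 0.37 and Pcna, the sliding clamp of DNA polymerases, 0.18. Cdc6 and Cdt1 load the helicase onto origins. Cdc6 was closer to the mitosis members, with a correlation of 0.70. Over all 55 pairs of replication members the median correlation was 0.46, from -0.03 to 0.95.

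Mcm5 had a wide inguinal range from 6.21 in D16 over a median of 7.51 to 9.76 in I2. Mcm6 ran from 6.36 in M4 over 7.82 to 9.53 in I2. Mcm2, Mcm3 and Mcm4 spanned 2.16, 2.10 and 2.07 log2 units, with I2 again the highest clone for each. Pcna spanned 1.22 log2 units, from 11.14 to 12.36, and Mcm7 spanned 1.46. Rrm2 ran from 9.03 in D12 over 10.18 to 11.85 in I2. M4, low for most members, ranked 2 of 23 for Rrm2 with a value of 10.87. Cdt1 ran from 7.31 in D16 to 9.42 in G18.

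The regulators showed less shared movement, with a median correlation of 0.07 over 28 pairs. Cdkn2c, an inhibitor of the cyclin D kinases, had a wide inguinal range, from 6.69 in N13 over 8.64 to 10.85 in D12. Ccnd1 (cyclin D1) ran from 10.51 in D12 to 12.90 in I2. Ccne2, an E-type cyclin, and Gmnn (geminin, the inhibitor of Cdt1) were closer to the mitosis members, with correlations of 0.72 and 0.68 with their mean. The other E-type cyclin Ccne1 had a correlation of 0.24. E2f1, a transcription factor of replication genes, ran from 6.07 to 7.22 and had correlations of 0.13 with the mitosis mean and 0.20 with the replication mean. Foxm1, a transcription factor of mitosis genes, spanned only 1.08 log2 units from 5.43 to 6.51, close to the array medians, and had a correlation of 0.15 with the mitosis mean. Cdkn1a, a kinase inhibitor induced by DNA damage, ran from 12.01 in A3 to 13.63 in B5, with a correlation of -0.14.

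To set replication against mitosis in each clone, every member was expressed as its difference from its inguinal mean and averaged within its role. The replication mean ran from -0.76 in D16 to 1.09 in I2, and the mitosis mean from -1.33 to 1.81 in the same clones. Across 23 inguinal clones the means had a Pearson correlation of 0.81 and a Spearman correlation of 0.74. The Pearson value was 0.68 without I2 and G18, the clones farthest from the median of the replication mean, and 0.92 without N13. N13 stood apart with a replication mean of 0.46 and a mitosis mean of -0.88. Its replication minus mitosis value of 1.34 was the highest of the 26 clones, followed by 0.57 in D16, and the lowest was -0.72 in I2. D16 was the lowest and I2 the highest inguinal clone for both means. The inguinal SD was 0.75 for the mitosis mean and 0.44 for the replication mean, so this unscaled difference partly follows the mitosis mean.

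**Figure D2:**
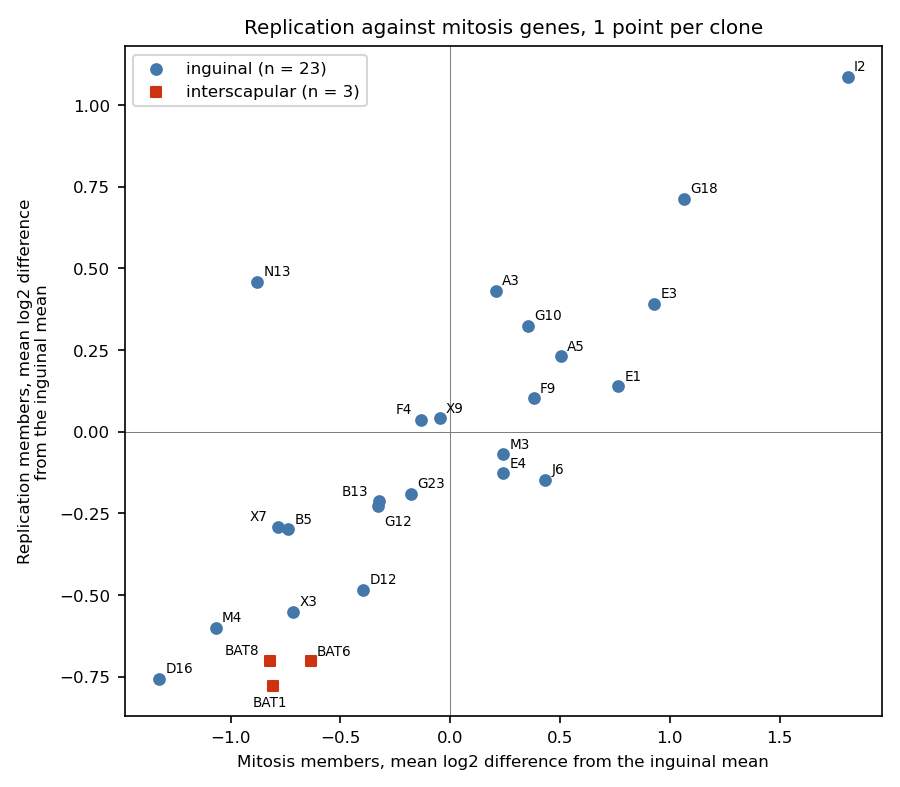
Each point is 1 clone, placed by the mean log2 difference from the inguinal mean over 19 mitosis members (horizontal) and 11 replication members (vertical), with 23 inguinal clones as circles and 3 interscapular clones as squares. N13 lies at -0.88 and 0.46, away from the line of the other clones, and the interscapular clones lie together at the low end.

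N13 was in the lowest 6 of 23 clones for 17 of 19 mitosis members and in the highest 6 for 6 of 11 replication members. It ranked 2 of 23 for Mcm2, Mcm3 and Mcm6, with levels of 8.07, 8.31 and 9.08, which are 1.09, 1.25 and 1.22 above their inguinal means. It was the lowest inguinal clone for Ccnb2, Kif20a, Ube2c and Cdkn2c, with Ube2c at 6.28, 1.93 below its mean, and Cdkn2c at 6.69, 2.14 below. E2f1, at 7.11, ranked 2 of 23. N13 also had a low Adipoq value of 10.68 and a Ucp1 value of 4.74. Over 36 further replication and 54 further mitosis genes outside the member list, its means were 0.17 and -0.47. N13 was the sole array of its scan session and of its chip lot, and its experiment file alone carries the letters FSK in the description. The clone and these technical features cannot be told apart.

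Between depots, 6 of 38 members passed the test, 1 higher and 5 lower in interscapular clones, and 32 did not pass. The test was limma, interscapular minus inguinal, with Benjamini-Hochberg adjustment over all 12741 genes at 0.05. The members' share of 15.8% stood beside 10.2% of all tested genes (4.55% higher and 5.64% lower). Estimates were negative for 32 of the 38, with a median of -0.60 against -0.02 for all genes. All 3 interscapular clones were below the inguinal median for 29 members. This last count was not made over all genes, so it only describes the members. The groups did not overlap for 1 member, Cdc6, while 2.86% of all genes did not overlap in either direction.

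Cdc6 was 2.76-fold lower on the log2(intensity + 16) scale. Its inguinal values ran from 6.05 over 6.58 to 7.35, and BAT1, BAT6 and BAT8 stood at 5.15, 5.43 and 4.79. Every interscapular clone was therefore below every inguinal clone and also below the median of its own array. The difference was -1.47 (SE 0.20, limma adjusted p = 2.25e-05). Its size depends on the added constant, at -2.06 with 1 and -0.80 with 64 in place of 16, and Cdc6 passed with each.

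Rrm2 was 2.98-fold lower, with interscapular values of 8.19, 8.69 and 9.05 against an inguinal mean of 10.22 ± 0.60 (SD, n = 23). Only D12, at 9.03, lay below the highest interscapular clone. The difference was -1.57 (SE 0.34, limma adjusted p = 0.00347). Mcm5 was 2.67-fold lower, at 6.66, 5.97 and 5.95, and 3 inguinal clones lay below the highest of these. Its difference of -1.42 (SE 0.45, limma adjusted p = 0.0433) no longer passed without any 1 of the 3 interscapular clones, with adjusted p between 0.0664 and 0.200, or without B5, E1, E3, F9, G10 or J6.

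Among the regulators, E2f1 was 1.84-fold lower, with 5.07, 6.08 and 5.97 against an inguinal mean of 6.58 ± 0.29 (SD, n = 23). The difference of -0.88 (SE 0.20, limma adjusted p = 0.00452) was -0.56 (adjusted p = 0.114) without BAT1. Ccnd1 was 2.54-fold lower, at 11.29, 9.33 and 10.81 against 11.82 ± 0.70, and BAT6, the array with the high Gapdh ratio, was the lowest of all 26. Its difference of -1.34 (SE 0.42, limma adjusted p = 0.0400) was -0.77 without BAT6 (adjusted p = 0.416), and -1.51 without BAT8 (adjusted p = 0.0798). Cdkn2c was 3.10-fold higher, at 10.86, 10.68 and 9.84, while 21 of 23 inguinal clones lay below the lowest of these. Its difference of 1.63 (SE 0.47, limma adjusted p = 0.0252) did not pass without BAT1 (adjusted p = 0.135) or without BAT6 (0.146). Ccne1, Ccne2, Cdkn1a, Foxm1 and Gmnn did not pass, with differences from -0.02 to 0.44.

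**Figure D3:**
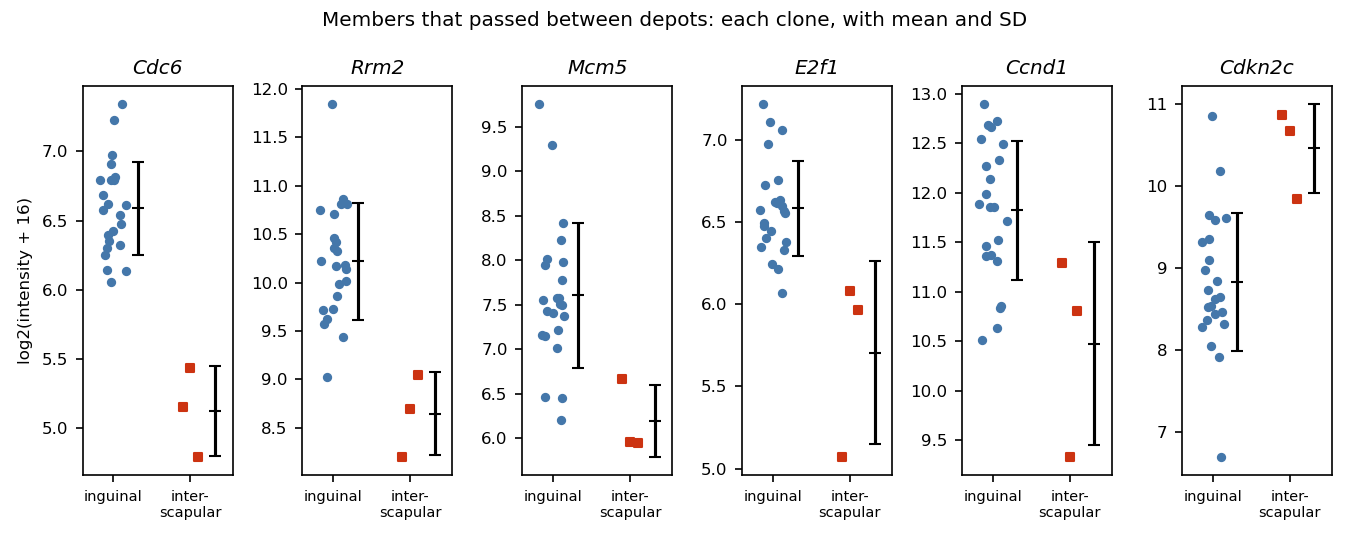
Each panel shows 1 of the 6 members that passed between depots as log2(intensity + 16), with 23 inguinal clones as circles, 3 interscapular clones as squares and bars for the mean and SD of each group. The vertical axes differ between panels, and Cdc6 alone has no overlap between groups.

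No mitosis member passed between depots in limma: 0 of 19, although 4 had an unadjusted p below 0.05. All 19 estimates were negative, from -1.54 to -0.19 with a median of -0.72, inside an inguinal spread that was wide for these genes. Top2a had a difference of -1.54 (adjusted p = 0.0726), Ube2c -1.38 (0.104) and Mki67 -0.72 (0.426). Top2a passed without D16 or without M4, the inguinal clones with its lowest values. The remaining replication members did not pass: Mcm2 at -0.96 (0.0582), Mcm6 at -0.87 (0.251), Mcm7 at -0.54 (0.160), Mcm3 at -0.47, Rrm1 at -0.30, Mcm4 at -0.29, Pcna at -0.18 and Cdt1 at 0.07. Averaged within roles, the interscapular clones had a mitosis mean of -0.75 ± 0.10 and a replication mean of -0.73 ± 0.04 (SD, n = 3). The replication minus mitosis value was 0.03 ± 0.09 there, against an inguinal SD of 0.47.

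With Mki67 as a covariate, an alternative added after the data were seen, 7 members passed, beside 8.98% of all genes. These were Cdc6, Rrm2, Mcm5, E2f1 and Top2a, which were lower, and Cdkn2c and Ccne2, which were higher. Top2a was then 0.84 lower (limma adjusted p = 0.00892) and Ccne2 0.77 higher (0.0425), while Ccnd1 no longer passed (0.0855). Lists of genes of other cell types were compared between depots as well. The mean of the adipocyte list was 0.46 to 1.65 above the inguinal mean in interscapular clones, within the inguinal range of -2.43 to 1.77, and 0 of its 14 genes passed (4 at an unadjusted p below 0.05). The preadipocyte and fibroblast list was at -0.97 to -0.62, against -0.68 to 0.87, and 4 of its 11 genes were lower. The macrophage and leukocyte list was at 0.64 to 0.82, above the inguinal range of -0.81 to 0.57. Of its 5 tested genes, Cd68, a lysosomal protein of macrophages, passed with a difference of 2.12 (limma adjusted p = 0.00277), and the other 4 had positive estimates. With Adipoq as a covariate, 7 members and 9.76% of all genes passed, and the part of the fibroblast and macrophage genes was not tested. The interscapular arrays shared scan sessions, scanners, chip lots and fluidics stations with inguinal arrays. Within scan session 1 (17 inguinal and 2 interscapular arrays) 3 members and 4.32% of all genes passed, and within session 2 (3 and 1) 0 members and 1.63% passed, with 5 at an unadjusted p below 0.05 in limma. Within scanner 1 (12 and 1) 1 member and 0.793% passed, and within scanner 2 (11 and 2) 4 members and 5.05%. Interscapular arrays came from chip lots 2 and 4, beside 4 and 3 inguinal arrays. With chip lot as a block, 4 members and 7.72% of all genes passed. Mcm5 was then at -0.97 (limma adjusted p = 0.210) and Ccnd1 at -0.88 (0.203), and Top2a and Mki67, which had not passed, were at -0.83 and -0.20. With fluidics station as a block, 2 members and 4.88% of all genes passed, and Rrm2 (adjusted p = 0.0521), E2f1 (0.0800), Cdkn2c (0.0680), Mcm5 (0.124) and Ccnd1 (0.148) did not. Cdc6 had a difference of -0.93 within session 2 (limma adjusted p = 0.215) and passed in 44 of 45 alternatives. Rrm2 passed in 42, E2f1 in 41, Cdkn2c in 38, Ccnd1 in 30 and Mcm5 in 25 of 45.

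Further genes of the same processes, not members, had mostly negative estimates between depots. These were 29 of 36 other replication genes (median -0.27), 49 of 54 other mitosis genes (median -0.45) and 19 of 34 other regulators (median -0.10). The shares that passed were 16.7%, 5.56% and 14.7%, beside 10.2% of all genes. Of the replication genes, 3 were lower and 3 higher in interscapular clones. Pola2, a subunit of the primase complex, was at -1.06, Cdc7, the kinase that fires origins, at -0.99 and Rfc3, a clamp loader subunit, at -0.97. Higher were Ung, which removes uracil from DNA, at 1.19, the flap endonuclease Fen1 at 1.08 and the polymerase subunit Pold1 at 0.68. All 3 interscapular values of Fen1, at 9.55, 10.29 and 10.05, lay above the inguinal mean of 8.88. Of the mitosis genes, 2 were lower, the passenger complex subunit Incenp at -0.82 and Cks1b, a partner of the cyclin kinases, at -0.67. Cdca2, a chromatin regulator of late mitosis, was 0.84 higher. Of the regulators, E2f7, an E2F repressor, at -1.07 and Skp2, a ubiquitin ligase subunit, at -0.77 were lower, and Mycn at 0.81, Ccnd2 (cyclin D2) at 0.61 and the retinoblastoma relative Rbl2 at 0.59 were higher.

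Among the 23 inguinal clones, the slope of each gene on Mki67 asked how members move with this proliferation marker. Proliferation itself was not measured. Mki67 is a mitosis member, so the slopes of the other mitosis members restate the shared variation of that group (median correlation 0.90). Of 37 members other than Mki67, 27 rose with it and none fell, while 4.92% of all genes passed (4.16% rising). All 18 other mitosis members rose, among them Bub1 with a slope of 1.02 (SE 0.06, limma adjusted p = 1.79e-11), Top2a with 0.97 and Cdc20 with 0.32. The order of these slopes depends on the probe set, and with the mean of all probe sets of a gene they were 0.43, 0.40 and 0.61, each passing. Cdc20 did not pass in 2 of 39 alternatives. Tpx2, with a slope of 0.43, did not pass in 1 of 39 (limma adjusted p = 0.158), and its slopes over the alternatives ran from 0.12 to 0.47. Of 11 replication members, 7 rose, with Mcm6 at 0.67, Mcm5 at 0.66, Rrm1 at 0.48, Mcm4 at 0.42, Mcm3 at 0.39, Mcm2 at 0.37 and Cdc6 at 0.25. Mcm3 (limma adjusted p = 0.0373) did not pass in 12 of 39 alternatives, and Mcm2 (0.0243) did not in 7 of 39. Both lost the call without D16, E3, I2 or M4 in turn. Rrm2 had a slope of 0.35 (adjusted p = 0.0516), and Cdt1, Mcm7 and Pcna had 0.21, 0.13 and 0.04. Of 8 regulators, Ccne2 rose with a slope of 0.46 and Gmnn with 0.26.

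Among further genes, 45 of 54 mitosis, 23 of 36 replication and 4 of 34 regulator genes rose with Mki67, and none of them fell. Without I2, 25 of 37 members rose (2.76% of all genes passed), 18 of mitosis and 5 of replication. Without N13, 29 rose (9.25% of all genes passed). With Adipoq as a covariate 22 rose, 17 of mitosis and 4 of replication (1.47% of all genes passed). Mcm2, Mcm3 and Mcm4 no longer passed in that fit, with slopes of 0.13, 0.15 and 0.24.

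**Figure D4:**
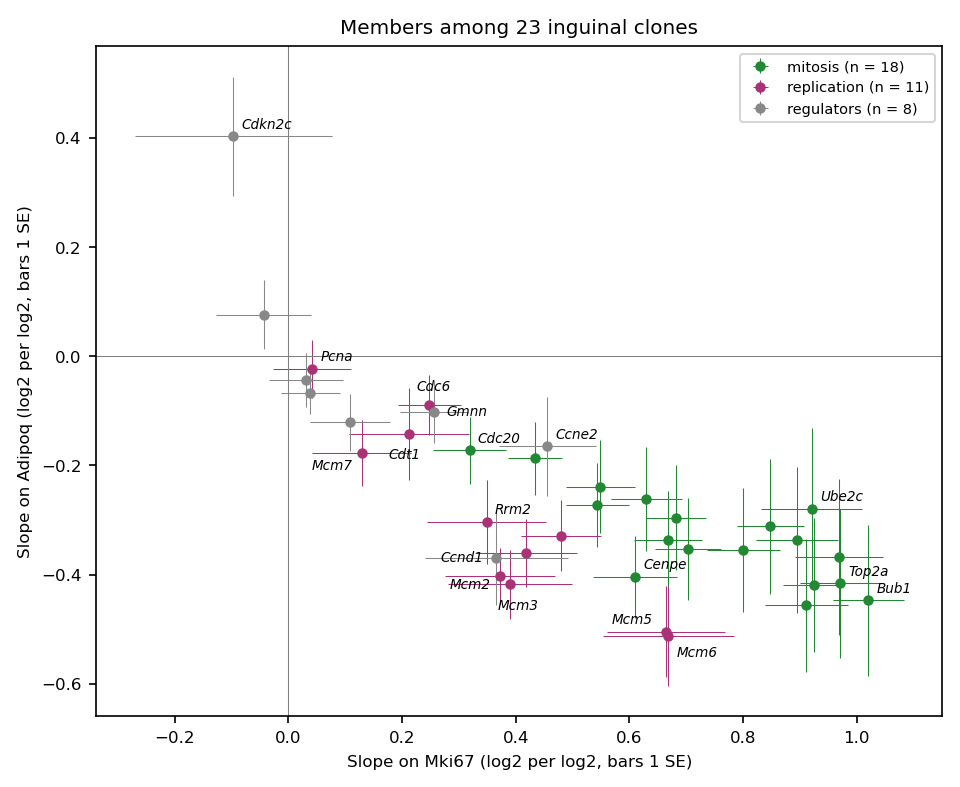
Each point is 1 member other than Mki67 among the 23 inguinal clones, placed by its slope on Mki67 (horizontal) and on Adipoq (vertical), both in log2 per log2 with bars of 1 SE. Most mitosis members lie to the right, but several, such as Cdc20 (0.32) and Tpx2 (0.43), lie left of Mcm5 (0.66) and Mcm6 (0.67). Mcm6 and Mcm5 lie lowest on the vertical axis, at -0.51 and -0.50, and Cdkn2c alone lies well above 0 there.

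The slope on Adipoq asked how members move with the level of a mature adipocyte gene. Of 38 members, 17 fell as Adipoq rose and 1 rose, while 9.07% of all genes passed (3.55% falling and 5.52% rising). Of the replication members, 7 of 11 fell: Mcm6 with a slope of -0.51, Mcm5 -0.50, Mcm3 -0.42, Mcm2 -0.40 (SE 0.05, limma adjusted p = 5.81e-06), Mcm4 -0.36, Rrm1 -0.33 and Rrm2 -0.30. Of the mitosis members, 9 of 19 fell, among them Birc5 at -0.46, Bub1 at -0.45 and Cenpe at -0.40. Ccnd1 fell with -0.37 and Cdkn2c rose with 0.40 (limma adjusted p = 0.0190).

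Several mitosis calls depended on single clones. Bub1 (limma adjusted p = 0.0415) lost its call without D12, D16, E3, G10, G18, I2, M4 or X3. Mki67 (0.0465) and Kif20a (0.0476) lost theirs without any 1 of many clones. All of the mitosis calls depended on I2. Without this clone, whose Adipoq value of 9.19 was the lowest, 0 of 19 mitosis members passed in limma (3 at an unadjusted p below 0.05), while 5 of 11 replication members still fell and Ccnd1 with them (0.746% of all genes falling). Without N13, which was low for both Adipoq and mitosis genes, 19 of 19 mitosis and 7 of 11 replication members fell (4.68% of all genes falling), and Cdkn2c did not pass (adjusted p = 0.0738). With Mki67 as a covariate, an alternative added after the data were seen, Mcm2, Mcm3, Mcm4, Mcm5, Mcm6 and Cenpe fell and Cdkn2c rose with a slope of 0.51, beside 4.09% of all genes. With fluidics station as a block, 3 members and 2.79% of all genes passed. The 23 inguinal clones share the array platform, and each was measured as a bulk RNA mixture. Across them, the mean of 14 adipocyte genes had a Pearson correlation of -0.82 with the replication mean and of -0.55 with the mitosis mean. Without I2 and G10, the clones farthest from the median of the adipocyte mean, these were -0.73 and -0.36, and without N13 they were -0.80 and -0.68.

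**Figure D5:**
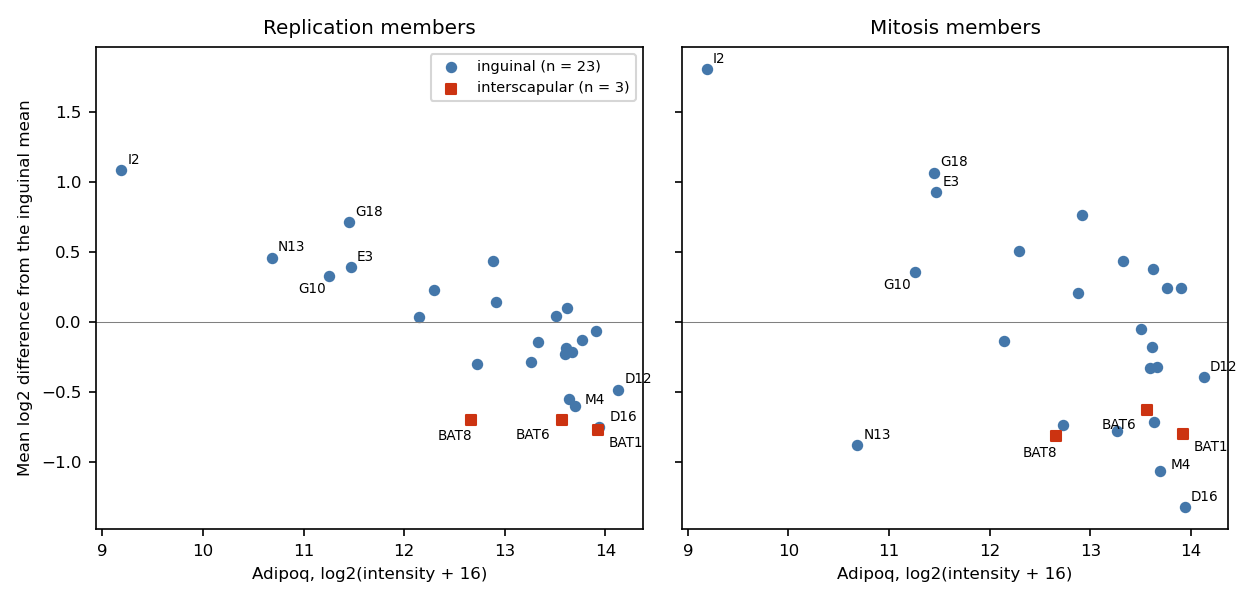
Each point is 1 clone, placed by Adipoq as log2(intensity + 16) and by the mean log2 difference from the inguinal mean over 11 replication members (left) or 19 mitosis members (right). I2 has the lowest Adipoq and the highest value in both panels, and N13 is at 0.46 on the left and at -0.88 on the right.

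On Ucp1, 0 of 38 members passed in limma, while 1.48% of all genes passed. At an unadjusted p below 0.05 in limma there were 7 of the 38 members and 1485 of 12740 genes. All 11 replication and all 19 mitosis members had negative slopes, with medians of -0.31 and -0.21. With Adipoq as a covariate the direction turned, with positive slopes for all 19 mitosis and 7 of 11 replication members, medians of 0.19 and 0.03, and no member passing (0 at an unadjusted p below 0.05 in limma). Without that covariate, Cdkn2c had the highest slope at 0.60 (limma adjusted p = 0.0794) and Ccnd1 the lowest at -0.47 (limma adjusted p = 0.123). The Pearson correlation of Ucp1 with the replication mean was -0.45, and with the mitosis mean -0.21.

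Outside all lists, 12543 genes were searched for likeness to the mean of each role across the 23 inguinal clones. The highest Pearson correlations with the mitosis mean were those of Pclaf and Cep55 at 0.97, Shcbp1 and Kif20b at 0.96 and Ncapg2 at 0.95. The lowest were Atp1a4 at -0.75, Pard3b at -0.74 and Mul1, Saa1 and Mrpl38 at -0.71. With the replication mean, the highest were Dtl at 0.94, Fignl1 at 0.90, 2810025M15Rik at 0.89 and Spdl1 and Dnajc9 at 0.88. The lowest were Cp (ceruloplasmin) at -0.88, Wfdc21 and Glul (glutamine synthetase) at -0.87, Slc36a2 at -0.85 and Agt (angiotensinogen) at -0.84.

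Several members had more than 1 probe set, and these were compared with the one used. There were 50 further probe sets of 27 members, 31 of them above the array median in at least 3 arrays, and 24 of these had a correlation above 0.7 with the one used. Of the members that passed between depots, Cdc6 and Cdkn2c had no further probe set with 1 symbol. For the other members that passed, the further probe sets above the array median in at least 3 arrays gave the same sign. Those of Rrm2 gave differences of -1.31 and -1.34, that of Mcm5 -0.93, that of E2f1 -0.54, and those of Ccnd1 -1.39 and -1.63. For Cdc20 the probe set used gave -0.19 and the others -0.92 and -0.61. For Top2a the probe set used gave -1.54, and a further one, above the array median in 19 arrays, gave -0.62. The depot fit with Mki67 as a covariate used only the former. For Cdkn1a the difference was 0.08 and -0.25, with a correlation of 0.48 between the probe sets. Correlations below 0.7 were also seen for further probe sets of Tpx2 (0.59 and 0.06), Cenpe (0.66), Foxm1 (0.62) and Mcm3 (-0.38). That probe set of Mcm3 gave a difference of 0.07, against -0.47 with the one used, while the other further ones gave negative differences.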

How the data were processed

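Gene expression was measured in 26 clonal lines with 1 Affymetrix mouse array each. The authors deposited linear intensities, 1 for each probe set of an array. The probe summary and any scaling by the authors are not stated. From these deposited intensity values, log2(intensity + 16) was computed with no further scaling. Of 45101 probe sets, 64 were controls, 34945 carried 1 symbol in the platform annotation, which can be old, and 932 carried several and 9160 none; the last 2 kinds were left out. A RefSeq gene table (GRCm38.p6) matched 34741 of those with 1 symbol. The brightest probe set stood for a gene, and a gene was tested when it lay above its array's median in at least 3 arrays.

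limma 3.58.1 in R 4.3.3 (lmFit and eBayes, two-sided, Benjamini-Hochberg over all tested genes, threshold 0.05) compared depots over all 26 clones and fitted slopes on Mki67, Adipoq and Ucp1 over the 23 inguinal clones. Differences on this scale understate changes of dim genes. The members and all gene lists were chosen with earlier results of these data known. All members could be named; of further cell cycle genes, those called between depots were named, and outside the lists the 5 genes most and least like each role mean. Scan sessions, scanners, chip lots and fluidics stations were read from the experiment files, with a session joining scan dates a few days apart. Scripts were tested on simulated data. The alternatives covered scaling, pseudocount, probe sets, filter, weights, threshold, batches, covariates and single clones. The number of arrays limits precision. Promoter windows were read from a RefSeq table (GRCm38.p6), kept within 100 bases of the 5′ end of the gene, a rule added after the windows were seen, and members with no such entry were left out of the promoter counts. Figures were drawn with matplotlib 3.10.9 in Python 3.11.15.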

Additional observations from a re-analysis of the deposited data

How the results depend on the processing

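None of the 6 members called between depots changed sign in the alternatives run. Of the 32 not called, 17 did in at least 1, among them Cdkn1a, at 0.08 in the main setting and -0.08 with the mean of probe sets, and Foxm1, each in 7. Between depots, 6 members passed in the main setting; 3 passed at a threshold of 0.01, 2 with fluidics station as a block, 3 within scan session 1, 0 within session 2 (5 at an unadjusted p below 0.05), 1 within scanner 1 and 3 without the arrays of BAT6 and F4 with high Gapdh ratios, an alternative chosen after seeing the data. Leaving out each inguinal clone gave 5 to 8 and each interscapular clone 3 to 4. For the slope on Adipoq, 18 members passed; 8 passed at 0.01, 3 with fluidics station as a block, and, both chosen after seeing the data, 7 with Mki67 as a covariate and 9 without I2 and N13, the clones farthest in Adipoq. Leaving out each inguinal clone gave 7 (without I2) to 27 (without N13). For the slope on Mki67, 27 members passed, and leaving out each clone gave 25 to 29. For the slope on Ucp1, 0 passed in limma (7 at an unadjusted p below 0.05), 1 at a threshold of 0.1 and 0 to 1 without each clone. The replication minus mitosis value by depot, 0.03, moved by less than the spread of the clones but changed sign, with -0.03 for the mean of probe sets and -0.01 with a constant of 64, at -0.01 to 0.09 without each inguinal and -0.02 to 0.07 without each interscapular clone. The cause of these changes was not tested, beyond the fewer arrays in the within-batch fits. Interscapular arrays ran on stations 1 and 8, beside 4 and 2 inguinal arrays.

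Over all genes, calls between depots numbered 1299 and ran from 101 within scanner 1 to 1997 at a threshold of 0.1, with 622 under the station block and 440 without BAT6. For Mki67 they were 627 and ran from 182 under the station block to 1206 under the session block, and for Adipoq 1155 and down to 355 under the station block. For Ucp1 they were 188, with 0 in limma under the station block (871 at an unadjusted p below 0.05) or with Adipoq as a covariate (489). Plin1 in place of Adipoq was not run, since no probe set carries that symbol. Fabp4, chosen after seeing the data, gave 23 members, and the share of all genes in that fit is not given here. Where the member count of an alternative has no share of all genes beside it, it gives no comparison with them. No paired analysis was possible because the replicate numbers only name clones and pair none across depots. With 3 interscapular clones, single clones weigh heavily, and dim members near the array median, such as Bub1b, are measured less well.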
